A study of Drosophila melanogaster with 10 samples.

Results

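In type II neuroblasts (NB II), the neural stem cells of the larval fly brain whose lineages form tumors when Brat is depleted, 75 of 17676 counted genes (0.424%) met a rule for genes raised by brat knockdown and still raised when Spt5 was targeted as well. In 73 of them every knockdown library had counts, and the other 2 met the rule only because all their control libraries were empty. The genes were selected on the measured values. Levels are counts per 1000000 counts of the library (CPM), and a gene was kept if its mean over the brat-KD libraries was at least 10 CPM. Its lowest CPM among the 4 brat-KD and 3 brat-KD Spt5-KD libraries also had to be at least 2 times its highest CPM among the 3 control libraries. The rise of these genes over the control is therefore how they were found and is described without a test. The difference between the 2 knockdown genotypes did not enter the rule, which nevertheless read the same libraries and left out any gene with control counts that fell back to the control level.

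The cells came from the brains of 96 h old larvae raised at 25 °C, were sorted by their GFP fluorescence, and held NB II together with their descendants. All 3 genotypes carried wor-GAL4, ase-GAL80 and UAS-mCD8::GFP, which limit transgene expression to NB II lineages. brat-KD cells carried UAS-brat-IR in addition (4 libraries), brat-KD Spt5-KD cells carried UAS-brat-IR and UAS-Spt5-IR (3 libraries), and control cells carried neither (3 libraries). The labels do not say whether libraries of a genotype came from separate dissections, and p-values then measure only the spread between these libraries.

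Brat is a translational repressor that binds messenger RNAs and is passed to the daughter that leaves the stem cell state. Without it the daughters revert to neuroblasts. Spt5 is a transcription elongation factor that travels with RNA polymerase II, and Myc is a growth regulator that raises ribosome production and metabolism. Proliferating neuroblasts and tumors derived from them are known for high glycolysis, high mitochondrial activity and expression of the oncofetal RNA-binding protein Imp.

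Library totals were 4968226 to 9753111 counts in the control, 5432145 to 7409954 in brat-KD and 2158058 to 4780947 in brat-KD Spt5-KD. brat was at 912 to 952 CPM in the control, 120.3 to 219 CPM in brat-KD and 103 to 322 CPM in brat-KD Spt5-KD. Spt5 was at 165 to 237 CPM in the control, 138 to 153 CPM in brat-KD, and 228, 112 and 537 CPM in brat-KD Spt5-KD, so the transcript was not lower in 2 of the 3 libraries labelled as its knockdown. The term "double knockdown" is used only for libraries that carry the label brat-KD Spt5-KD. The neuroblast genes wor, mira, klu, pnt, insc and tll were present in every library, but not at steady levels. dpn fell to 17.8 CPM in double knockdown replicate 1, against 111 and 142 CPM in replicates 2 and 3. klu and insc were lowest in that replicate too, at 69.7 and 57.4 CPM. klu was at 113 to 138 CPM in the control, 223 to 277 CPM in brat-KD and 69.7 to 132 CPM in the double knockdown, and insc at 113 to 171, 266 to 409 and 57.4 to 119 CPM. Double knockdown replicate 1 and control replicate 1 stood apart from the others of their genotype (Spearman correlation across genes 0.843 and 0.859, and 0.903 and 0.901, against 0.929 and 0.959 between the remaining 2). Summed markers of mature neurons ran from 1408 to 1597 CPM in the control, 432 to 619 CPM in brat-KD and 547 to 960 CPM in the double knockdown (14 genes), and those of intermediate progenitors from 2915 to 3739, 1337 to 1587 and 712 to 1314 CPM (12 genes). The part of these cell type differences in the results was not tested, and in sorted cell mixtures fewer cells of a type cannot be told apart from less RNA per cell.

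Together the 75 genes held 0.293% to 0.348% of the counts in the control libraries, 1.37% to 1.58% in brat-KD and 1.65% to 2.15% in the double knockdown. The lowest raised library was a median of 2.64 times the highest control library, and at least 3 times in 22 of the 73 genes with a control count. The ratio was 8.74 in Imp. CG11263 had a ratio of 16.6, but this rests on at most 2 counts in a control library and is not a firm value. The threshold cut through a continuum. CG13305, CG3726 and CG17726 lay just inside it with ratios of 2.00, 2.01 and 2.02, and CG18178, CG9300 and Ifrd1 just outside it with 1.99, 1.98 and 1.97. Without control replicate 1 the rule found 136 genes, without control replicate 2 it found 113, and without double knockdown replicate 1 it found 109. Leaving out a library cannot lower a gene's ratio, so the direction of these changes was fixed by the rule and only their size is read.

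**Figure D1:**
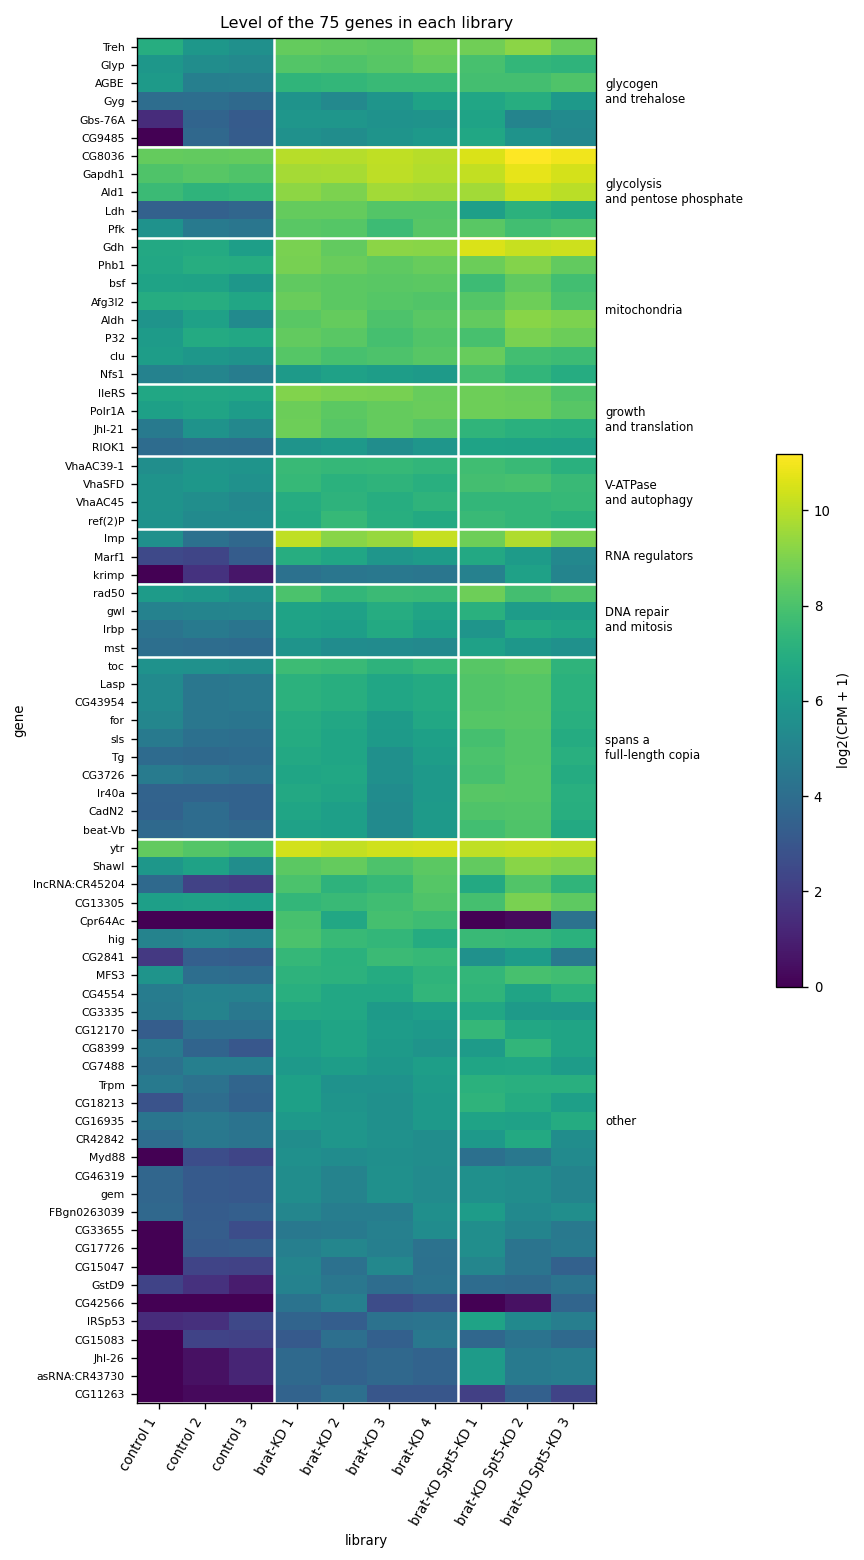
Level of each of the 75 genes (rows, grouped by role) in each of the 10 libraries (columns), as log2(CPM + 1) in color. White vertical lines separate control, brat-KD and brat-KD Spt5-KD; the 10 genes that span a full-length copia are brighter in double knockdown replicates 1 and 2 than in any brat-KD library.

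Of the 75, 71 are annotated as protein coding, 2 as noncoding RNA and 1 as a pseudogene, and FBgn0263039 was not in the annotation used. Chromosome arm 2R held 26 of them, 35.1% of those annotated, beside 19.7% of all genes tested for brat-KD against control. Of the 2 genes with an empty control, Cpr64Ac, a cuticle protein gene, had 246, 105, 234 and 208 CPM in brat-KD but 0, 0.209 and 17.6 CPM in the double knockdown, and CG42566 had 0, 0.418 and 11.6 CPM there. Neither was held in every double knockdown library, and CG43367, which overlaps Cpr64Ac, had 1.26 times its counts, so the reads of that pair cannot be told apart. A count of 0 allows up to 0.783 CPM in double knockdown replicate 1 and 0.308 to 0.604 CPM in the control libraries (3 counts, counting error only).

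Several rows of the list share reads. Genes with at least 500 counts that lie wholly in an intron of a host gene were compared with that host. In all 130 such pairs on opposite strands and all 53 on 1 strand, the host reached 0.9 times the nested gene's count or more. A gene's count therefore took in reads of genes inside its introns, on either strand. Lasp and CG43954, gem and CG46319, and JhI-26 and asRNA:CR43730 had equal counts in every library, and Aldh lies inside Shawl, lncRNA:CR45204 inside Imp and eIF6 inside ytr. After merging overlapping genes, 69 loci remained. Of the 75 genes, 44 overlap another counted gene, and in 20 an overlapping gene had at least 0.5 times the count.

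All 75 genes were tested for brat-KD against control with edgeR's quasi-likelihood test and 73 of them passed an adjusted p of 0.05, where 13.8% of all genes tested were called higher. Against the control, the double knockdown was called higher in 63 of 73 genes tested (3.97% of all genes). Nothing is read from these 2 counts because the rule used both contrasts, and the second count was 26 without control replicate 2 and 38 without control replicate 3. Over all genes the same call fell from 338 to 40 and 67 in these 2 settings. The median log2 fold change was 2.16 for brat-KD and 2.57 for the double knockdown.

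The remaining contrast, double knockdown against brat-KD, split the list. 17 of the 75 genes (22.7%) were called higher, beside 5.91% of all 8750 genes tested, 5 (6.67%) were called lower, beside 5.71%, and 53 passed no threshold. The median log2 fold change was 0.39 for the 75 genes and -0.05 for all genes tested. In 23 genes every double knockdown library lay above every brat-KD library (11.9% of all genes tested), in 6 every one lay below (17.3%), and in 46 the genotypes overlapped. Because the rule kept strong falls out, it moves the median and the share of higher genes upward and the share of lower genes downward, and none of these comparisons with all genes is a result about the list. The count called higher depended on the libraries, with 3 to 8 genes when brat-KD replicate 4, 1, 3 or 2 or double knockdown replicate 2 was left out, and 31 without double knockdown replicate 1. The count over all genes moved in the same directions, from 517 to between 195 and 331 in the former settings and to 1247 of 9158 in the latter. Gdh, Nfs1, Trpm, Ldh, JhI-21 and CG2841 kept their call in all 13 alternatives other than the replicate block. That block sets same-numbered libraries together, which leaves brat-KD replicate 4 without a partner and few libraries to measure the spread. Under it edgeR called no gene of the list after adjustment, and 23 higher and 6 lower at an unadjusted p under 0.05.

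**Figure D2:**
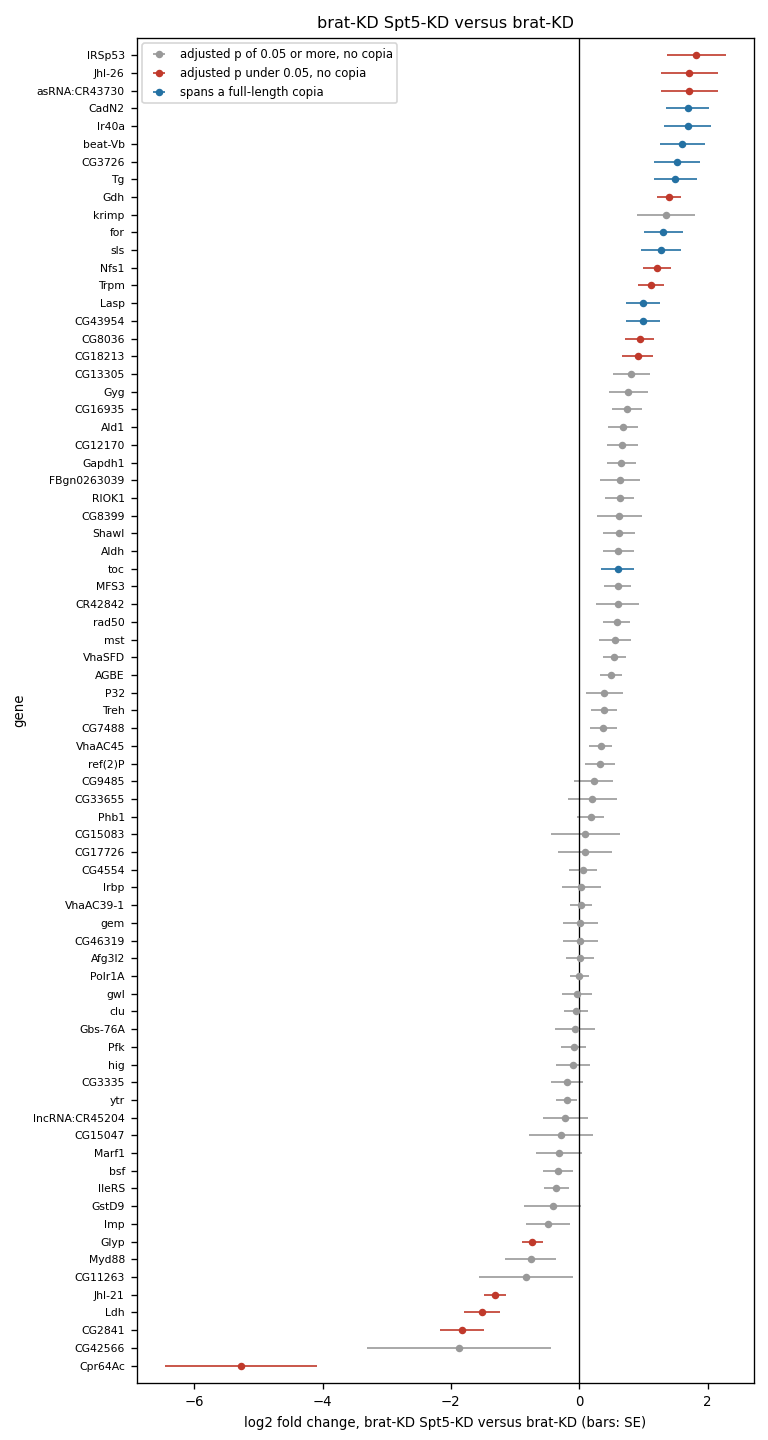
Log2 fold change (x axis) of brat-KD Spt5-KD against brat-KD for each of the 75 genes (y axis), with its standard error, in red where the adjusted p was under 0.05 and in blue where the gene spans a full-length copia. Of the 17 genes called higher, 9 are blue, and the genes called lower run from Glyp at -0.73 to Cpr64Ac at -5.27.

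Of the 17 genes called higher, 9 span a copy of the same transposon. The 9 include Lasp and CG43954, and the 17 also JhI-26 and asRNA:CR43730, pairs with equal counts in every library. Copia is an LTR retrotransposon of about 5000 bases that is present in many near-identical copies, and 10 of the 75 genes span a copy of at least that length: toc, a microtubule-associated protein gene; Lasp and CG43954, which share a span and encode an actin-binding protein in the case of Lasp; for, the cGMP-dependent protein kinase; sls, the titin homolog; Tg, a transglutaminase; CadN2, a cadherin; beat-Vb, of the beat family of axon guidance proteins; Ir40a, an ionotropic receptor; and CG3726. In Ir40a (chromosome 2L, 22189526 to 22214376, BDGP6), the copia copy lies at 22201408 to 22206551 on the strand of the gene. Ir40a was at 10.9, 10.8 and 10.3 CPM in the control, 106, 90.4, 42.2 and 65.8 CPM in brat-KD and 305, 304 and 131 CPM in the double knockdown. The 3 genotypes did not overlap, and the order of the brat-KD libraries (1, 2, 4, 3) was that of all the 10 genes except CG3726.

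Their median was 16.2 to 23.7 CPM in the control libraries, 111, 97.1, 57.8 and 77.4 CPM in brat-KD replicates 1 to 4, and 276, 302 and 130.0 CPM in the double knockdown. The 10 genes spanned 10.3 to 51.2 CPM over the control libraries, 82.3 to 199 CPM in brat-KD replicate 1, 78.0 to 189.7 CPM in replicate 2, 39.3 to 147 CPM in replicate 3 and 64.6 to 176 CPM in replicate 4. In the double knockdown they spanned 221 to 308, 271 to 344 and 109 to 155 CPM. toc was the highest gene in every library. Copia lies on the strand of the gene in 4 of them and on the opposite strand in 6. Against brat-KD, 9 of the 10 were called higher by edgeR, from 1.00 ± 0.27 on the log2 scale (SE, adjusted p = 0.0421) for Lasp and CG43954 to 1.69 ± 0.34 (adjusted p = 0.0157) for CadN2, and toc was at 0.60 ± 0.26 (adjusted p = 0.175). None of the 10 was called by edgeR without brat-KD replicate 4 or without double knockdown replicate 2 (9 at an unadjusted p under 0.05 in each case), and 2 to 5 were without brat-KD replicate 1, 2 or 3. Without these 10 genes, 8 of 65 were called higher and 5 lower, with a median of 0.21.

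The gain was similar in genes that missed the rule. Of all counted genes, 17 span a full-length copia, 10 of the list and 7 others, with Lasp and CG43954 counted as separate genes despite their equal counts. All 17 gained between 133 and 240.1 CPM over the control mean in the double knockdown (median 210.1 CPM), a gain above 100 CPM that 4.56% of all genes tested had. In brat-KD the 17 gained 48.2 to 129 CPM, with a median of 60.8 CPM. The 7 outside the list, among them Eip63E, rut and Gprk2, gained 133 to 240.1 CPM in the double knockdown, and the 10 on the list gained 187 to 236 CPM. The control means were 31.2 to 158 CPM in the 7 and 10.6 to 48.7 CPM in the 10. For the 22 other transposon families with at least 5 such genes (elements of at least 4000 bases), the median gain ran from -37.8 CPM for springer to 75.6 CPM for Rt1a in the double knockdown, and from -48.97 CPM for Stalker2 to 88.2 CPM for 3S18 in brat-KD. Calls of a higher level in the double knockdown than in brat-KD were not particular to copia. They were made for 13 of the 17 copia genes, 6 of 7 for mdg3, 6 of 11 for flea and 0 of 8 for jockey (5.91% of all genes tested). The 7 mdg3 genes gained 45.8 to 168 CPM over the control mean in the double knockdown. Whether the reads came from copia itself was not tested, because the counts are summed over genes. The eye and body color genes that mark fly stocks and transgenes also differed between the genotypes, with w at 172, 119 and 359.6 CPM in the double knockdown and 45.3 to 79.9 CPM in the others, and y at 15.7, 38.9 and 37.5 CPM against at most 0.368 CPM. On a list of 4 transgene marker genes, 3 were tested between the knockdown genotypes. Of these, 2 were called higher in the double knockdown and 0 lower, beside 5.91% and 5.71% of all genes tested. The part of the marker genes in the copia values was not tested.

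**Figure D3:**
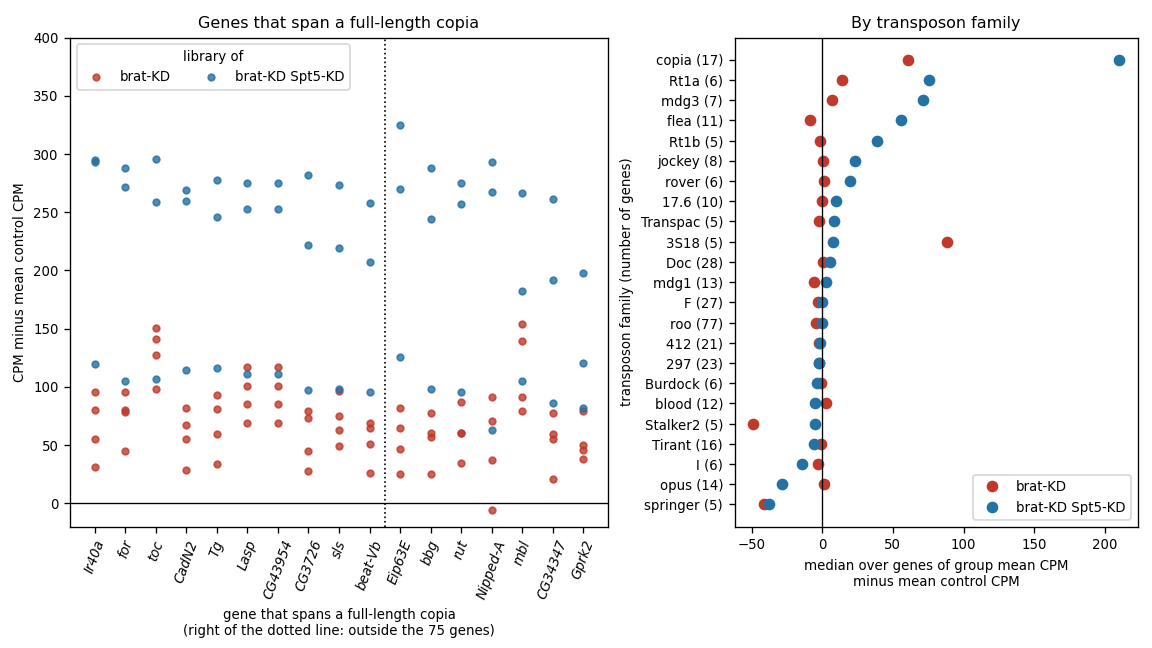
Left, CPM minus the mean control CPM (y axis) in each brat-KD (red) and brat-KD Spt5-KD (blue) library for the 17 genes that span a full-length copia, 10 of the list and, right of the dotted line, 7 others. Right, the median of these gains over the genes that span an element of each family, at 210.1 CPM for copia and at most 75.6 CPM for any other family in brat-KD Spt5-KD.

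6 of the genes encode enzymes or regulators of sugar stores. Glycogen phosphorylase (Glyp) frees glucose units from glycogen, AGBE branches the chains, CG9485 is the debranching enzyme, glycogenin (Gyg) primes a chain, Gbs-76A brings a phosphatase to glycogen, and trehalase (Treh) splits trehalose, the blood sugar of insects. Treh was at 125, 59.7 and 48.5 CPM in the control, 366, 346, 333 and 427 CPM in brat-KD and 433, 597 and 386 CPM in the double knockdown. Its knockdown genotypes overlapped (0.39 ± 0.20 on the log2 scale, adjusted p = 0.253, edgeR). AGBE was at 67.8, 27.3 and 28.4 CPM in the control, 158 to 188 CPM in brat-KD and 227, 227 and 272 CPM in the double knockdown, where every library was the higher one without passing the test (0.50 ± 0.18, adjusted p = 0.110). Glyp was the exception in this group. It was at 58.8, 43.6 and 37.2 CPM in the control and 292, 277, 310.0 and 370.0 CPM in brat-KD, and fell to 243, 168 and 153 CPM in the double knockdown (-0.73 ± 0.17, adjusted p = 0.0251). The call was lost in 8 of 14 alternatives, any brat-KD library left out included.

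CG9485 and Gbs-76A were low in the control, at 0 to 12.9 CPM, and reached 44.0 to 64.9 CPM in brat-KD and 32.2 to 99.2 CPM in the double knockdown. CG9485 had 0, 126 and 42 counts in control replicates 1 to 3, and CG33655, which overlaps it, had 0.546 times its counts. In 12 of the 75 genes, CG9485 among them, at least 1 control library had no count. Gyg was at 13.3 to 15.6, 37.4 to 86.9 and 65.3 to 125 CPM, and an overlapping gene, CG44245, had 1.15 times its counts. On a list of 12 glycogen and trehalose genes drawn up after these values were seen, 11 were in the table, 6 of them chosen by the rule, and 10 were tested between the knockdown genotypes. None was called higher in the double knockdown (5.91% of all genes tested) and 2 were called lower (5.71%), Glyp and Gbs-70E. Gbs-70E is another subunit that targets the phosphatase to glycogen and no gene of the 75.

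Of 16 genes on the glycolysis list, 15 were tested. Between the knockdown genotypes 1 was called higher, Gapdh2 (5.91% of all genes tested), and 1 lower, Ldh (5.71%). The rule chose 4 of the list: phosphofructokinase (Pfk), which commits sugar to glycolysis, aldolase (Ald1), which splits it, Gapdh1, which oxidizes the product, and lactate dehydrogenase (Ldh). Of the 15 tested against the control, 11 were called higher in brat-KD (13.8% of all genes) and 10 in the double knockdown (3.97%), with 0 lower in either. The rule fixed the direction of the 4 genes it chose in both contrasts. Pfk was at 51.4, 22.8 and 19.9 CPM in the control, 319.8, 303, 202 and 311 CPM in brat-KD and 319, 222 and 258 CPM in the double knockdown, and the knockdown genotypes overlapped (-0.09 ± 0.20, adjusted p = 0.837, edgeR). Gapdh1 was at 271 to 308 CPM in the control and 812, 851, 1077 and 958 CPM in brat-KD. In the double knockdown it was at 1122, 1739 and 1392 CPM, above every brat-KD library but past no threshold (0.65 ± 0.23, adjusted p = 0.102). Ald1 had the same order with 155 to 194, 504 to 785 and 791 to 1256 CPM (0.68 ± 0.24, adjusted p = 0.102).

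Ldh went the other way. It was at 10.1, 9.95 and 11.9 CPM in the control, 367, 365, 289 and 287 CPM in brat-KD and 79.1, 143 and 113 CPM in the double knockdown, a fall of 1.51 ± 0.28 on the log2 scale (log2 fold change -1.51, adjusted p = 0.0117, edgeR). Even so, the lowest double knockdown library was 6.66 times the highest control library, the seventh highest ratio on the list. CG8036, a transketolase of the pentose phosphate pathway, was at 357 to 372 CPM in the control, 1004, 987, 1119 and 995 CPM in brat-KD and 1471, 2317 and 1979 CPM in the double knockdown. It was called higher there than in brat-KD (0.94 ± 0.23, adjusted p = 0.0299), a call lost in 7 of 14 alternatives.

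**Figure D4:**
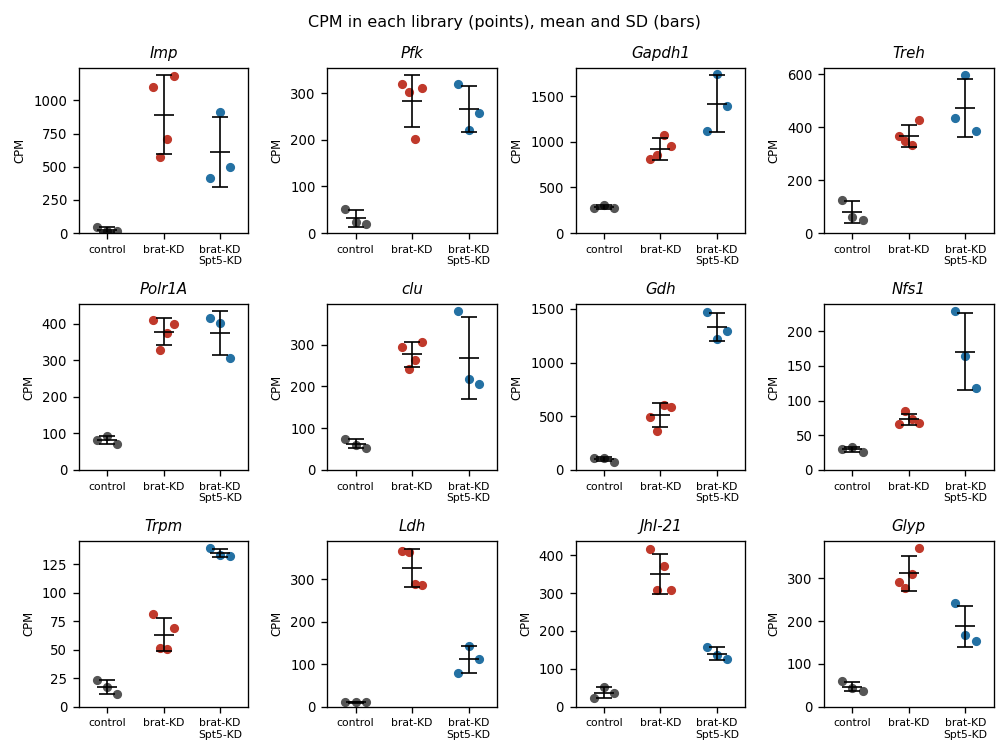
CPM (y axes, each starting at 0) of 12 of the genes in every control (grey), brat-KD (red) and brat-KD Spt5-KD (blue) library, with mean and SD. Gdh, Nfs1 and Trpm are highest in the double knockdown, Ldh, JhI-21 and Glyp lie between control and brat-KD there, and the other 6 overlap between the knockdown genotypes except for Gapdh1.

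Mitochondrial genes made up the next group. Glutamate dehydrogenase (Gdh) feeds glutamate into the citric acid cycle, and it was at 107, 114 and 76.7 CPM in the control, 489, 363, 609 and 584 CPM in brat-KD and 1473, 1224 and 1296 CPM in the double knockdown. All 3 genotypes were separate in Gdh, and the step from brat-KD to the double knockdown was 1.40 ± 0.18 on the log2 scale (adjusted p = 0.00393, edgeR). Nfs1, the cysteine desulfurase that supplies sulfur for iron-sulfur clusters, was at 30.2, 32.8 and 25.4 CPM, then 66.8, 84.5, 72.7 and 67.1 CPM, then 228, 164 and 119 CPM. It was also called higher in the double knockdown (1.21 ± 0.22, adjusted p = 0.0122), and Hacd1, which overlaps it, had 0.400 times its counts.

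For 5 others in the group the test found no difference between the knockdown genotypes. Prohibitin 1 (Phb1) is a scaffold of the inner membrane, Afg3l2 a protease there, clu a protein that binds messenger RNAs for mitochondrial proteins, bsf the fly homolog of the mitochondrial RNA-binding protein LRPPRC, and P32 a matrix protein. Phb1 was at 103 to 123 CPM in the control, 340.1 to 469 CPM in brat-KD and 356 to 556 CPM in the double knockdown, and clu at 52.9 to 74.6, 241 to 307 and 205 to 380.4 CPM. The log2 differences of these 5 genes between the knockdown genotypes lay between -0.33 and 0.39, with standard errors of 0.19 to 0.28 and none called. Aldh, a mitochondrial aldehyde dehydrogenase, was at 39.5 to 82.8, 266 to 371 and 357 to 575 CPM (0.61 ± 0.24, adjusted p = 0.145). Shawl, the potassium channel gene around it, spans it on the other strand, and the count of Aldh was 0.984 times that of Shawl over all libraries.

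Genes of growth and protein synthesis showed both outcomes. Polr1A, the largest subunit of RNA polymerase I, was at 80.9, 92.4 and 71.1 CPM in the control, 412, 328, 375 and 398 CPM in brat-KD and 417, 401 and 306 CPM in the double knockdown. The difference between the knockdown genotypes was 0.00 ± 0.15 (adjusted p = 0.992, edgeR). It was the only gene of the 16 tested on the ribosome biogenesis list to meet the rule. Of these 16, Polr1A included, 15 were called higher in brat-KD than in control (13.8% of all genes) and 6 in the double knockdown (3.97%), and none between the knockdown genotypes in either direction. IleRS, the isoleucine tRNA synthetase, was at 98.4 to 102 CPM in the control, 379.9 to 533 CPM in brat-KD and 277 to 424 CPM in the double knockdown (-0.36 ± 0.19, adjusted p = 0.279). RIOK1, a kinase of small ribosomal subunit maturation, was at 14.6 to 16.2, 44.0 to 65.5 and 82.9 to 88.5 CPM.

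JhI-21, an amino acid transporter, was partly held. It was at 22.5, 52.2 and 36.6 CPM in the control, 417, 308, 370.2 and 307 CPM in brat-KD and 158, 136 and 126 CPM in the double knockdown, with no overlap between genotypes (log2 fold change -1.31 ± 0.17 against brat-KD, adjusted p = 0.00376, edgeR). 2 other transporters on the amino acid list, which missed the rule, overlapped the control libraries in the double knockdown. mnd was at 34.8 to 48.1 CPM in the control, 259.8 to 418 CPM in brat-KD and 19.3 to 66.3 CPM in the double knockdown, and path at 109 to 184, 852 to 1212 and 117 to 207 CPM. Against brat-KD they fell by 3.00 ± 0.45 and 2.70 ± 0.28 on the log2 scale. Of the 27 genes of this list tested between the knockdown genotypes, 2 were called higher and 6 lower, beside 5.91% and 5.71% of all genes tested. Gdh and JhI-21 alone were among the 75.

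Imp, the oncofetal RNA-binding protein of early neuroblasts, was at 47.4, 16.9 and 12.9 CPM in the control, 1102, 577, 711 and 1183 CPM in brat-KD and 414, 909 and 501 CPM in the double knockdown. The knockdown genotypes overlapped (-0.49 ± 0.34, adjusted p = 0.407, edgeR), and the lowest raised library was 8.74 times the highest control library, control replicate 1. Imp was the 1 gene of 13 counted on the list of oncofetal and temporal factors to meet the rule. Syp, the RNA-binding protein of late neuroblasts, was at 1252 to 2378 CPM in the control, 2413 to 4256 CPM in brat-KD and 478 to 1177 CPM in the double knockdown. grh, which encodes a transcription factor of neuroblasts, was at 109 to 194, 553 to 678 and 188 to 248 CPM, and chinmo, an oncogene of neuroblast tumors, at 256 to 329.9, 294 to 383 and 93.1 to 134 CPM. These 3 were called lower in the double knockdown than in brat-KD, with log2 fold changes of -2.10 ± 0.30, -1.45 ± 0.18 and -1.49 ± 0.19.

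**Figure D5:**
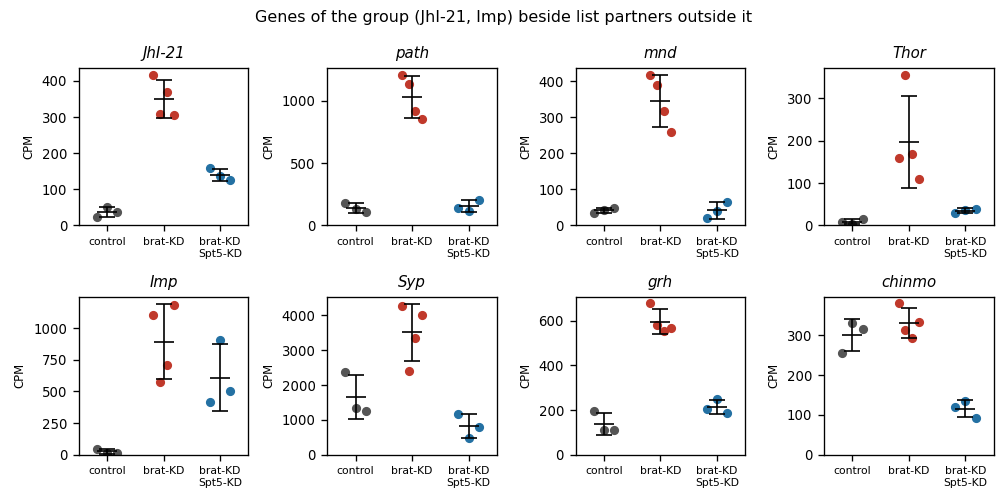
CPM (y axes, each starting at 0) in every library, with mean and SD, of JhI-21 and Imp beside genes of the same lists that missed the rule, path, mnd and Thor (amino acid and ATF4 list) and Syp, grh and chinmo (oncofetal and temporal factors). JhI-21 and Imp stay above the control in each brat-KD Spt5-KD library, while path and mnd lie in or near the control range.

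2 more RNA regulators were on the list. Marf1, a regulator of messenger RNA in the female germline, was at 4.10 to 8.66 CPM in the control, 57.5 to 123 CPM in brat-KD and 36.6 to 105 CPM in the double knockdown (-0.32 ± 0.36, adjusted p = 0.634, edgeR). krimp, a Tudor domain protein of the germline piRNA pathway, which silences transposons, was at 0, 2.15 and 0.604 CPM, then 16.9 to 21.2 CPM, then 29.5, 84.1 and 31.5 CPM. Every double knockdown library was the higher one, yet the difference was not called (1.35 ± 0.45, adjusted p = 0.0883). It was the only gene to meet the rule among 22 piRNA pathway genes listed after the values were seen. Of the 18 tested between the knockdown genotypes, 1 was called higher and 2 lower, beside 5.91% and 5.71% of all genes tested.

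None of the acidification and turnover genes was called between the knockdown genotypes. VhaAC39-1 and VhaSFD are subunits of the V-ATPase, the proton pump of lysosomes, VhaAC45 is an accessory protein of it, and ref(2)P, the fly p62, is an autophagy receptor. These 4 were at 36.2 to 60.3 CPM in the control, 109 to 192 CPM in brat-KD and 137 to 239 CPM in the double knockdown. Every double knockdown library was above every brat-KD library in VhaSFD, at 188 to 239 against 131 to 177 CPM, and in VhaAC45, at 166 to 179 against 122 to 155 CPM. Their log2 differences between the knockdown genotypes were 0.03 to 0.55, with none called by edgeR. A list of 33 V-ATPase subunits and partners, drawn up after the values were seen, holds 3 of these genes. Of its 19 genes tested against the control, 8 were called higher (13.8% of all genes) and 3 lower in brat-KD. In the double knockdown 5 were called higher (3.97% of all genes) and 0 lower. The rule fixed the direction of the 3 genes it chose in both contrasts. Of 20 tested between the knockdown genotypes, 2 were called higher and 0 lower, beside 5.91% and 5.71% of all genes tested.

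4 genes act in DNA repair and mitosis, and none was called between the knockdown genotypes. rad50, of the MRN complex that binds broken DNA ends, was at 70.2, 60.3 and 46.3 CPM in the control, 259.6, 168, 195 and 191 CPM in brat-KD and 419.8, 225 and 272 CPM in the double knockdown (0.58 ± 0.21, adjusted p = 0.107, edgeR). Irbp, the fly Ku70, was at 18.4 to 23.1, 76.3 to 108 and 55.1 to 111 CPM, and gwl, the Greatwall kinase of mitotic entry, at 30.2 to 33.4, 82.9 to 119 and 71.7 to 137 CPM. mst, which is needed for spindle assembly, was at 13.9 to 15.9, 37.9 to 53.6 and 49.1 to 83.5 CPM. Their partners mre11, nbs and Ku80 are not among the 75 and were listed after the values were seen. They were called higher in the double knockdown than in brat-KD, by 1.24 ± 0.24, 1.54 ± 0.33 and 1.71 ± 0.20. On that list 3 of 7 genes tested were called higher, beside 5.91% of all genes tested.

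Trpm, an ion channel for magnesium and zinc, was called higher with a narrow range in the double knockdown and a wider one elsewhere. It was at 23.2, 17.3 and 11.5 CPM in the control, 81.2, 51.7, 50.7 and 69.2 CPM in brat-KD and 139, 133 and 132 CPM in the double knockdown (1.12 ± 0.21, adjusted p = 0.0127, edgeR). IRSp53, a protein that bends membranes, was at 1.66 to 4.43, 9.11 to 18.8 and 26.4 to 89.0 CPM (1.83 ± 0.45, adjusted p = 0.0332). JhI-26, a juvenile hormone inducible gene, and its antisense partner asRNA:CR43730 shared their counts, at 0, 0.410 and 1.21 CPM, then 10.4 to 13.1 CPM, then 70.2, 23.0 and 25.9 CPM (1.72 ± 0.45, adjusted p = 0.0388). CG18213 was at 6.27 to 15.2, 48.3 to 79.9 and 78.3 to 152 CPM (0.91 ± 0.24, adjusted p = 0.0431). Except for Trpm, the calls of these genes were lost in 6 to 9 of 14 alternatives.

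The gene with the highest level in brat-KD by CPM, ytr, encodes a conserved arginine-rich protein. It was at 357, 295 and 243 CPM in the control, 1359.9, 1122, 1329 and 1409 CPM in brat-KD and 1093, 1156 and 1103 CPM in the double knockdown (-0.20 ± 0.16, adjusted p = 0.4995, edgeR). The reads of eIF6, a ribosome assembly factor gene inside it, are part of these counts, at 73.7 to 141, 251 to 378 and 315 to 354 CPM. hig, a protein of the synaptic cleft, was at 30.0 to 36.6, 117 to 259.8 and 139 to 190.1 CPM, and Myd88, the adaptor of the Toll receptor, at 0 to 5.23, 42.4 to 48.6 and 16.4 to 40.3 CPM. In Myd88 every double knockdown library was below every brat-KD library without a call (-0.76 ± 0.40, adjusted p = 0.265). CG2841 was called lower, with 2.58 to 9.54 CPM in the control, 174, 139, 197 and 179.8 CPM in brat-KD and 49.9, 70.7 and 21.8 CPM in the double knockdown (-1.83 ± 0.35, adjusted p = 0.0132). CG11263, with the lowest mean in brat-KD, had at most 0.205 CPM in the control, 7.02 to 15.9 CPM in brat-KD and 3.39 to 9.62 CPM in the double knockdown.

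The genes left to account for, none of them called between the knockdown genotypes, include MFS3, a membrane transporter of the major facilitator family, gem, a transcription factor that shares its counts with CG46319, and GstD9, a glutathione transferase. MFS3 was at 53.6, 15.5 and 14.3 CPM in the control, 117 to 153 CPM in brat-KD and 170.2 to 244 CPM in the double knockdown. gem was at 7.45 to 11.8, 31.1 to 48.0 and 31.97 to 47.3 CPM, and GstD9 at 0.805 to 3.69, 14.98 to 30.2 and 13.6 to 18.5 CPM. The others carry no name beyond an identifier, CG13305, CG4554, CG3335, CG12170, CG8399, CG7488, CG16935, CG33655, CG17726, CG15047, CG15083, CR42842 and FBgn0263039. Among them CG13305 was highest, at 77.4 to 83.3, 167 to 276 and 237 to 493 CPM (0.81 ± 0.29, adjusted p = 0.111, edgeR). In 8 of these 13 an overlapping gene had more counts: Bx for CG15047, GCC88 for CG17726, MTA1-like for CG12170, CG15099 for CG15083, hpRNA:CR32207 for CR42842, CG9485 for CG33655, and 1 of 2 overlapping genes each for CG7488 and CG16935, so reads of the neighbors and of the genes themselves cannot be told apart.

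Markers of other cell types are given here for sls, Cpr64Ac and the genes of sugar stores. sls is on the muscle list, and the other 8 muscle markers counted summed to 26.97 to 86.1 CPM in the control, 19.8 to 38.6 CPM in brat-KD and 11.7 to 82.0 CPM in the double knockdown, beside 116 to 292 CPM for sls alone in the last. Cpr64Ac is on the list of epithelial and cuticle genes, where its neighbors Cpr64Ab and Cpr64Ad had at most 1.67 CPM in any library. Fat body markers, from the main tissue for glycogen and trehalose, summed to 0 to 42.7 CPM in the control, 0 to 2.83 CPM in brat-KD and 12.97 to 29.2 CPM in the double knockdown (6 genes), where every library was above every brat-KD library. Their part in the values of the glycogen and trehalose genes was not tested. Hemocyte markers summed to 39.4 to 106, 18.6 to 23.6 and 21.8 to 38.1 CPM (9 genes).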

How the data were processed

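Polyadenylated RNA of FACS-sorted NB II and their descendants was sequenced from directional libraries. The authors aligned the reads to BDGP6 (dm6) using bowtie2 (local alignment, very sensitive preset) and deposited whole-number counts per gene in 1 table. FastQC and edgeR 3.26.8 are in the submitters' processing notes, and the tool that counted reads is not given in the sources used here.

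Counts were divided by library totals to give CPM. For each pair of genotypes, the deposited counts were filtered with filterByExpr, scaled by TMM and tested with the quasi-likelihood test of edgeR 4.0.16 (R 4.3.3, limma 3.58.1) on the libraries of that pair, with Benjamini-Hochberg adjustment over all genes tested and a threshold of 0.05. Values after ± are standard errors on the log2 scale, derived from the test as the absolute log2 fold change over the square root of its F statistic. Python 3.11.15 and pandas 2.3.3 served for all tables. DESeq2 1.42.0, its size factors, scaling by total counts, other filters, 1 fit over all genotypes, a replicate block and leaving out each library were the alternatives, and the fits were tested on simulated data. Symbols, positions and transposons came from Ensembl release 115 (BDGP6.54), which held 17549 of the 17676 genes.

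The members and gene lists were chosen with earlier results of these data known, and role groups and the lists said to be added were made after the values were seen. Genes were named if they were on a list, among the 15 with the highest brat-KD mean, among the 10 with the highest ratio over the control (or 5 with an empty control), among the 10 with the largest fold in each direction of those called between the knockdown genotypes, or among the 3 nearest the threshold on each side. The others are named, with their roles, to account for all 75. Totals of 2158058 to 9753111 counts limit the precision of low genes. Motif searches were planned but no sequences were used here.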

Additional observations from a re-analysis of the deposited data

Results flagged for a closer look

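In the 4 brat-KD libraries, 1 replicate lay far from the other 3 in 2 of the 75 genes, at a cutoff set for about 1 in 20 groups. The rule had already used these values and some of the genes share reads, so the count cannot be compared with chance. CG8036, the transketolase, was at 1119 CPM in brat-KD replicate 3 and at 987 to 1004 CPM in the other replicates. Pfk was at 202 CPM in the same library and at 303 to 319.8 CPM in the others.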

How the results depend on the processing

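Leaving out 1 library at a time gave 75 to 136 genes by the rule, 70 to 75 called higher in brat-KD than in control and 26 to 65 in the double knockdown. The first range could hardly go below 75, because leaving out a library cannot lower a gene's ratio. Only the mean of the brat-KD libraries could then remove a gene. Between the knockdown genotypes, leaving out 1 library gave 3 to 31 called higher, 0 to 9 spanning copia, and 3 to 5 called lower. Over all genes it gave 875 to 1606 higher calls in brat-KD than in control and 40 to 770 in the double knockdown. Between the knockdown genotypes the calls over all genes were 195 to 1247 higher and 139 to 1161 lower. A ratio of at least 1.5 gave 201 genes and a ratio of at least 3 gave 24. Among the 31 genes that overlap no other annotated gene, 31 were called higher in brat-KD than in control, 25 of 30 in the double knockdown than in control, and 4 higher and 3 lower between the knockdown genotypes. Without the genes that span copia, an alternative chosen after seeing the data, 8 were called higher there. With TMM-scaled values the rule gave 74 genes, 68 of them shared.

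Same-numbered libraries did not deviate together (correlations of -0.02 to 0.15), so the numbers were not taken to pair the samples. With the replicate block 0 genes of the list were called higher, 0 of those spanning copia and 0 lower between the knockdown genotypes, where the edgeR adjusted p for Gdh and JhI-21 was 0.0654. At an unadjusted p under 0.05 the block left 23 higher, 9 of them spanning copia, and 6 lower, and DESeq2 without it called 22 higher and 5 lower after adjustment. Over all genes the block, in which brat-KD replicate 4 has no partner, gave 1 higher and 0 lower call by edgeR, in place of 517 and 500. DESeq2 gave 928 and 814, and against the control 735 higher calls in the double knockdown in place of 338, which 1 fit over all genotypes raised to 740 and the block lowered to 143. The 1 fit gave 676 higher calls in brat-KD in place of 1209. No called gene of the list changed direction in any alternative run, and the causes of these differences were not tested. Genes under about 3 counts in a library could not be told from absent ones.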
